A study of Mus musculus with 40 samples.

Results

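The 10 serotonin receptor genes *Htr1a*, *Htr1b*, *Htr1d*, *Htr1f*, *Htr2a*, *Htr2c*, *Htr4*, *Htr5a*, *Htr6* and *Htr7* were followed through 40 RNA-seq libraries of mouse striatum. They were chosen by symbol, as 10 of the 24058 different gene symbols in the table of read counts, with earlier results of these data known. The libraries fall into 10 groups of 4. In a RiboTag experiment an AAV makes one kind of cell produce the ribosomal protein RPL22 with a haemagglutinin tag, tagged ribosomes are immunoprecipitated with their RNA (IP), and a portion of the lysate is kept as the input, which holds RNA of all cells of the tissue. Control input and Control IP came from adult C57/BL6NTac mice, and the methods of the study name GfaABC1D, an astrocyte promoter, for the RiboTag that was not driven by hSYN1. Neuron input and Neuron IP came from adult C57/BL6NTac mice that received the RiboTag under hSYN1, a promoter active in neurons. SAPAP3 WT input and IP were from C57/BL6J mice, and SAPAP3 KO input and IP from mice labelled C57/BL6J-Dlgap3 KO, which lack the postsynaptic scaffold protein SAPAP3 in every cell and groom compulsively. These mice were injected at an older adult age, and no source used here names the cell type tagged in them. Bulk WT and Bulk KO libraries hold whole striatal RNA with no RiboTag step, and the strain label of all these mice reads C57/BL6NTac. The AAV was injected into the dorsal striatum.

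Serotonin reaches the striatum along axons from the raphe nuclei and acts there through several receptor families. The receptors of the 5-HT1 family (*Htr1a*, *Htr1b*, *Htr1d*, *Htr1f*) and the 5-HT5A receptor (*Htr5a*) couple to Gi/o proteins, which lower cyclic AMP. Those of the 5-HT2 family (*Htr2a*, *Htr2c*) couple to Gq and phospholipase C, and those encoded by *Htr4*, *Htr6* and *Htr7* couple to Gs, which raises cyclic AMP. The mRNA of a receptor is found in the cell that makes it, whereas the protein may act at the far end of an axon, as 5-HT1B does on the terminals of striatal projection neurons.

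In mm10, which is the assembly GRCm38, the genes lie on 9 chromosomes. *Htr1a* is a gene of 1 exon on chromosome 13 (105443693 to 105448133, plus strand). The gene for the 5-HT1B receptor, *Htr1b*, lies on chromosome 9 (81628291 to 81633832, minus strand), and it shares exon bases with the antisense gene *D430036J16Rik* on the plus strand. *Htr2a* is on chromosome 14 (74640874 to 74706859) and *Htr2c* on the X chromosome (146962464 to 147197277), where it hosts several small RNA genes in its introns. *Htr1d* and *Htr6* are on chromosome 4, as is *Dlgap3*, the gene deleted in the KO mice. The distance to *Dlgap3* is 9.19 Mb for *Htr1d* and 11.82 Mb for *Htr6*. No annotated gene overlapped an exon of the 9 genes other than *Htr1b*, and no transcript of another gene was near identical to theirs.

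The promoters of *Htr1a* and *Htr1b* are printed because the levels of these 2 genes moved in opposite directions in Control IP and across the bulk libraries. In both SAPAP3 IP groups the 2 genes were lower on average than in their inputs. A link between the promoters and these levels was not tested. They are the RefSeq reference sequence of GRCm38.p6 from 250 bases before to 50 bases after the annotated start, written 5′ to 3′ on the strand of the gene, at chr13:105443443-105443742 and chr9:81633783-81634082. Capitals mark the letters GGGCGG, the core of the GC box, or CCAAT, the CCAAT box, on either strand.
Htr1a: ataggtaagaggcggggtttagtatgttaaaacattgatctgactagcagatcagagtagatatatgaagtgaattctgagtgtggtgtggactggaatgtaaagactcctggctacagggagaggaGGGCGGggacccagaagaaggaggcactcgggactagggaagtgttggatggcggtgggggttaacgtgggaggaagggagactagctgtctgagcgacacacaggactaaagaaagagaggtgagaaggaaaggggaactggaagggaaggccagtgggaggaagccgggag
Htr1b: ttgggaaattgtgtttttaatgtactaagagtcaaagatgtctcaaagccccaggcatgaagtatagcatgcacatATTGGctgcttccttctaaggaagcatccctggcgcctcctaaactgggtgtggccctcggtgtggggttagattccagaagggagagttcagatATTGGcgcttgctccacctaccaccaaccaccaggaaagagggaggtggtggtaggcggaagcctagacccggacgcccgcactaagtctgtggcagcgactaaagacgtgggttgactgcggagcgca
The *Htr1a* window held 1 GC box core and no CCAAT box, and the *Htr1b* window held 2 CCAAT boxes and no GC box core. Of 32851 mouse promoters of this length, 35.7% held GGGCGG and 37.4% held CCAAT. The letters TATAAA were in none of the windows of the 9 receptor genes searched and in 13.6% of all promoters. The promoter of *Htr4* was not analysed here.

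All 10 receptor genes were counted in every library, with between 51 reads for *Htr6* in the library where it was lowest and 4703 reads for *Htr2c* where it was highest. The libraries summed to between 23434895 and 84100486 reads over symbols listed once. Levels are given as CPM, the count scaled to a common library total. To compare genes with each other, CPM were divided by the merged exon length in kilobases (FPKM). In Bulk WT, *Htr2a* had the highest level per length, at 15.0 ± 4.02 FPKM (SD, n = 4), followed by *Htr2c* at 10.9 ± 2.00 and *Htr1b* at 6.83 ± 2.09, and the libraries of each of these neighbours overlapped. *Htr5a* (3.86 ± 0.948), *Htr1f* (3.71 ± 0.912), *Htr1d* (3.57 ± 0.827) and *Htr1a* (2.71 ± 1.46) lay close together and also overlapped. The lowest were *Htr7* at 1.95 ± 0.503, *Htr6* at 0.758 ± 0.138 and *Htr4* at 0.755 ± 0.261 FPKM. The gap between *Htr7* and *Htr6* was larger than the spread of the libraries in Bulk WT.

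**Figure D1:**
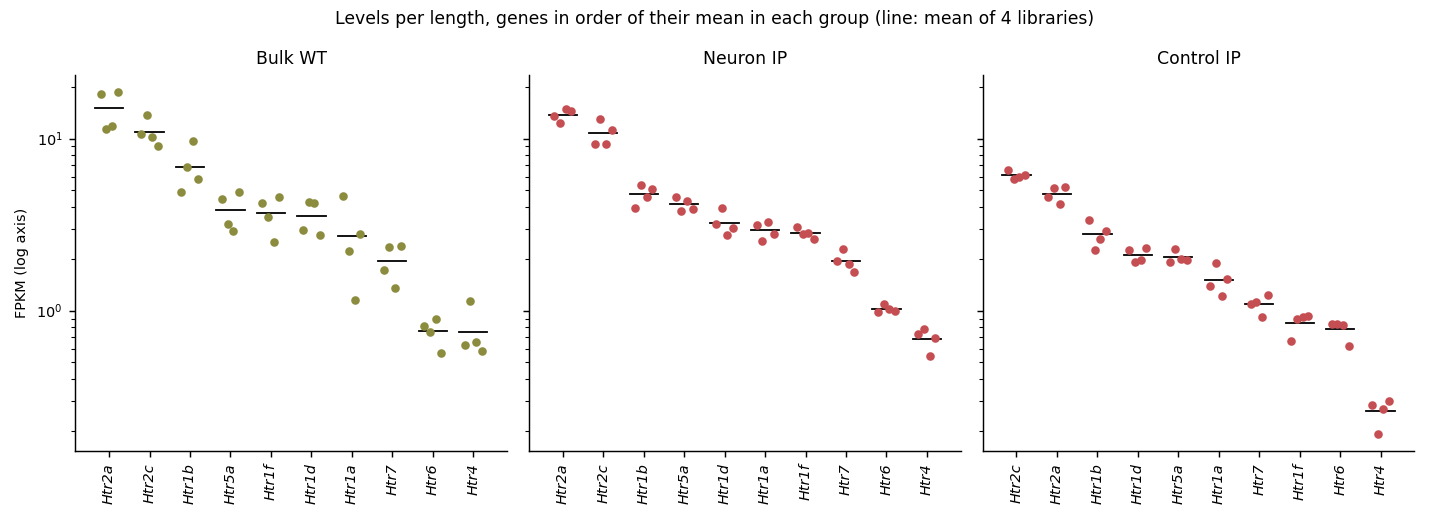
FPKM (log axis) of the 10 receptor genes in Bulk WT, Neuron IP and Control IP, with genes in order of their mean, a point for each library and a line at the mean of the 4 libraries. *Htr2a* and *Htr2c* lead in each panel and *Htr4* is last, at 0.755 FPKM in Bulk WT and 0.261 FPKM in Control IP.

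The order in Neuron IP was nearly that of the whole tissue, with *Htr2a* at 13.8 ± 1.11 and *Htr2c* at 10.7 ± 1.73 FPKM (SD, n = 4), which overlapped, and *Htr6* (1.02 ± 0.0466) and *Htr4* (0.686 ± 0.101) at the end. In Control IP *Htr2c* was first at 6.13 ± 0.319 FPKM and *Htr2a* second at 4.78 ± 0.506, and here their libraries did not overlap. *Htr4* was last in Control IP at 0.261 ± 0.0473 FPKM, below all libraries of *Htr6* at 0.783 ± 0.105. Over the 10 groups the mean of a gene varied least for *Htr7* (1.96-fold between the highest and the lowest group), *Htr5a* (2.05-fold) and *Htr2c* (2.05-fold). It varied most for *Htr4* (4.81-fold), *Htr1f* (4.69-fold) and *Htr1d* (4.46-fold).

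**Figure D2:**
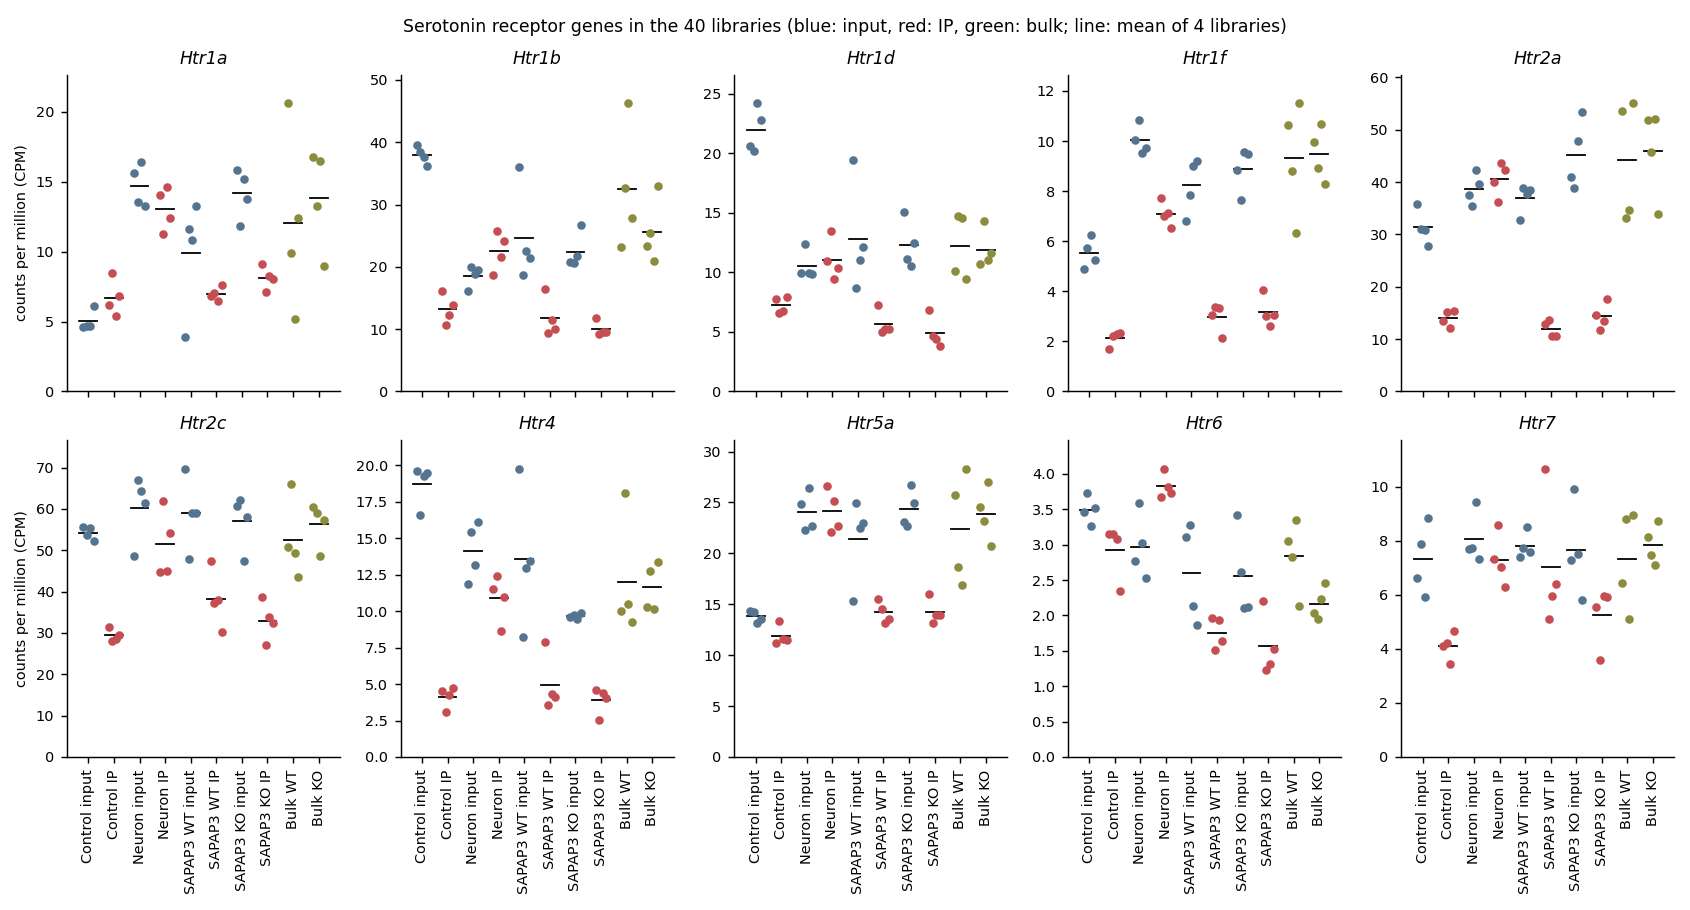
CPM of each receptor gene in all 40 libraries by group, with blue points for inputs, red for IP, green for bulk, and a line at the mean of the 4 libraries. *Htr4* sits between 16.6 and 19.8 CPM in Control inputs and in the SAPAP3 WT input of replicate 1, and below 5 CPM in all libraries of Control IP.

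The tagged cells were checked with lists of marker genes. Of 10 astrocyte markers, 10 were called higher in Control IP than in input, and their summed level was 32278 to 34608 CPM in IP and 3710 to 3869 CPM in input. The 10 neuron markers still summed to 4421 to 4760 CPM in Control IP, against 7047 to 7336 CPM in input, so that RNA typical of neurons was still present in Control IP. The 4 markers of cholinergic interneurons rose in Control IP from 85.7 to 107 CPM in input to 393 to 420.5 CPM, and all 4 were called higher also in both SAPAP3 IP groups. In Neuron IP 3 of these 4 were called higher, where 0.432% of all genes tested were. All 5 ependymal markers were called higher in Control IP and both SAPAP3 IP groups, with sums of 59.3 to 132 CPM against at most 32.1 CPM in the inputs. Of 6 oligodendrocyte markers, 2 were called higher in each SAPAP3 IP group. In SAPAP3 WT and KO IP the astrocyte list was also raised in 10 of 10 genes, and the neuron list was at 4000 to 5371 CPM. In Neuron IP the neuron list reached 8661 to 8998 CPM, above the 6126 to 6490 CPM of its input, and the astrocyte list stood at 3496 to 3808 CPM. No defining marker of these lists was at 0 in any group. The part of the residual neuronal RNA in the receptor levels of Control IP and SAPAP3 IP was not tested.

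The libraries differed in a further respect, the level of markers of cortical neurons. The summed level of 7 markers of cortical excitatory neurons (*Slc17a7*, *Neurod6*, *Tbr1*, *Emx1*, *Rorb*, *Fezf2* and *Cux2*) was 126 to 159 CPM in Control inputs and 809.9 to 1097 CPM in Neuron inputs. Among SAPAP3 WT inputs it was 159 CPM in replicate 1 and 696 to 862 CPM in the other 3, and in SAPAP3 KO inputs it was 829 to 937 CPM. In the bulk libraries it ranged from 271 to 1081 CPM. The SAPAP3 WT input of replicate 1 also stood apart in the receptor genes. It held 3.88 CPM of *Htr1a*, against 10.8 to 13.3 in the other WT inputs. *Htr1b* was at 36.1 CPM there, against 18.7 to 22.6, and *Htr4* at 19.8 CPM, against 8.25 to 13.5. In whole tissue a smaller number of cells of one type and less RNA in each of them cannot be told apart. Values without this library are given beside the results that it moved most.

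The comparison of Control IP with its input asks which receptor mRNAs are carried by ribosomes of the tagged cells more or less than by the tissue around them. A gene was called changed when its adjusted p in edgeR was under 0.05 and its log2 fold change was above 1 or below -1, with counts scaled by TMM, a normalisation that centres the bulk of all genes. Receptor genes were depleted in Control IP: 4 of 10 were called lower and 0 higher, where 13.5% of all genes tested were called lower and 13.4% higher. The median log2 fold change of the 10 genes was -0.80, and that of all genes -0.02. For the 9 neuron markers that could be tested it was -0.79. Counting only the adjusted p, 7 receptor genes were lower and 1 was higher, where 41.2% of all genes were lower and 39.2% higher.

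The Gs-coupled receptor gene *Htr4* had the deepest depletion. Its level was 19.6, 16.6, 19.3 and 19.4 CPM in the 4 Control inputs and 4.52, 3.06, 4.26 and 4.75 CPM in the Control IP libraries of the same mice. No IP library came near an input. The level in IP was 3.88-fold lower (log2 fold change -1.95 ± 0.12 SE, edgeR adjusted p = 3.7e-08).

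The 5-HT1 family did not move as a block. *Htr1b*, which striatal projection neurons are known to express, was at 39.6, 38.4, 37.6 and 36.2 CPM in the inputs and 16.1, 10.7, 12.3 and 13.8 CPM in IP (log2 fold change -1.30 ± 0.10, edgeR adjusted p = 3.3e-07). The antisense gene that overlaps its exon, *D430036J16Rik*, moved with it, from 18.8 CPM on average in input to 4.03 CPM in IP. The use of strand in counting is not given in the sources used here, so reads of the shared bases cannot be told apart. *Htr1d*, a close relative of *Htr1b*, fell from 20.6, 20.2, 24.2 and 22.8 CPM to 7.73, 6.60, 6.72 and 7.93 CPM (log2 fold change -1.38 ± 0.08, edgeR adjusted p = 3.7e-08). *Htr1f*, which encodes a further Gi/o-coupled receptor, fell from 4.91 to 6.23 CPM in inputs to 1.68 to 2.34 CPM in IP (log2 fold change -1.16 ± 0.13, edgeR adjusted p = 8.6e-06). The groups did not overlap for any of these 3 genes. The share of all genes without overlap was not computed, here or for the other comparisons.

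*Htr1a*, the receptor that also serves as the autoreceptor of raphe serotonin neurons, was the exception in the 5-HT1 family. It was at 4.63, 4.69, 4.70 and 6.11 CPM in Control inputs and 6.18, 8.46, 5.37 and 6.81 CPM in Control IP, and the groups overlapped in part. Its log2 fold change was 0.64 ± 0.15 (edgeR adjusted p = 0.0018), which passed the p limit and not the fold limit. The 7 cortical markers also summed to more in Control IP, 305 to 496 CPM, than in input, 126 to 159 CPM. Of these 7, 3 were called higher and 0 lower, where 13.4% of all genes were called higher. The largest rise on this list was that of *Rorb*, from 29.0 CPM on average in inputs to 230 CPM in IP. *Slc17a7* averaged 72.6 CPM in inputs and 111 CPM in IP, and *Cux2* 21.9 and 18.3 CPM. The part of cortical RNA in the *Htr1a* value was not tested. Scaled to library totals without TMM, the value was 0.42 (adjusted p = 0.022). This scaling moved the median of all genes in Control IP to -0.25, and called 1654 genes higher and 2789 lower in place of 2070 and 2085.

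Both 5-HT2 genes were lower by the adjusted p and not by the fold limit. *Htr2a*, which is abundant in the cortex and is the receptor on which psychedelics act, was at 35.8, 31.1, 30.8 and 27.9 CPM in Control inputs and 13.4, 15.1, 12.2 and 15.4 CPM in Control IP. The log2 fold change was -0.94 ± 0.09 (edgeR adjusted p = 2e-06), just inside the fold limit, and -1.16 with library totals, where the gene was called. *Htr2c*, a receptor with strong expression in choroid plexus epithelium as well as in neurons, was at 52.3 to 55.7 CPM in inputs and 28.0 to 31.5 CPM in IP (log2 fold change -0.66 ± 0.05, edgeR adjusted p = 1.2e-07). Of 8 choroid plexus markers, 6 could be tested in Control IP, and 3 were called higher and 2 lower. Their sum was 263 to 280 CPM in inputs and 241 to 363 CPM in IP, most of it *Enpp2*, at 245 and 296 CPM on average. *Clic6* averaged 19.9 CPM in inputs and 7.58 CPM in IP, *Kl* 5.61 and 1.91 CPM, and *Ttr* 0.603 and 0.0372 CPM. Other markers of low level went the other way, *Folr1* from 0.274 to 0.969 CPM, *Otx2* from 0.338 to 0.786 CPM and *Aqp1* from 0.175 to 0.661 CPM.

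Among the others, *Htr7* was lower in Control IP (log2 fold change -0.61 ± 0.13, edgeR adjusted p = 0.0013), with 5.93 to 8.87 CPM in inputs and 3.45 to 4.66 CPM in IP. *Htr5a* was at 13.2 to 14.4 CPM in inputs and 11.2 to 13.3 CPM in IP, and its log2 fold change was 0.00 ± 0.07 (edgeR adjusted p = 0.98). With library totals the value for *Htr5a* was -0.22 (adjusted p = 0.012). *Htr6* had 3.27 to 3.74 CPM in inputs and 2.34 to 3.15 CPM in IP, which did not overlap, yet after TMM scaling the log2 fold change was -0.03 ± 0.12 (edgeR adjusted p = 0.82).

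**Figure D3:**
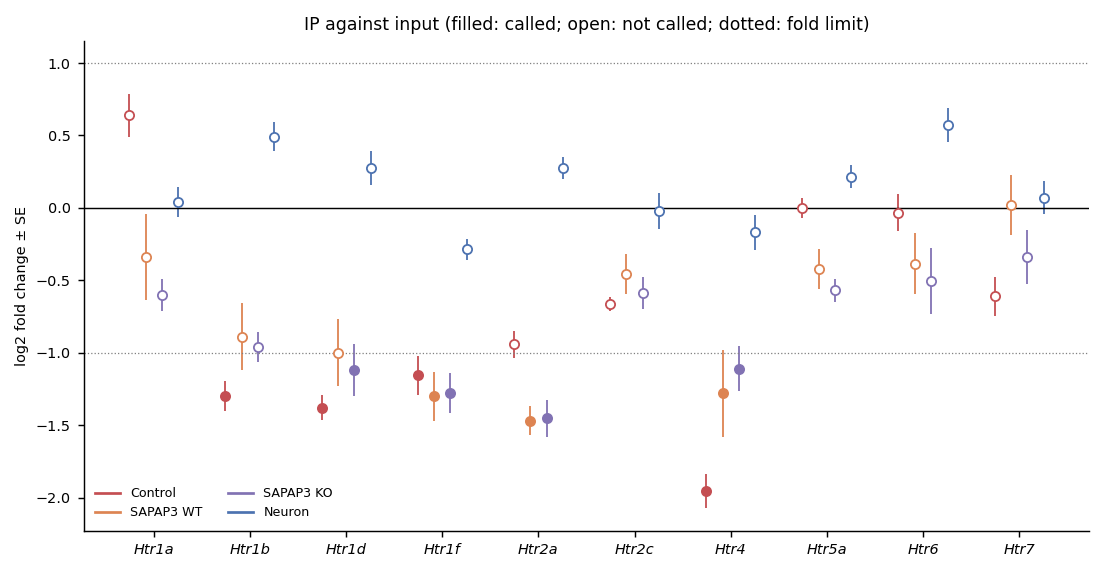
Log2 fold change of IP against input (± SE, edgeR, 4 against 4 libraries) for each receptor gene in the Control, SAPAP3 WT, SAPAP3 KO and Neuron cohorts, with filled points for called genes and dotted lines at the fold limit of 1. The Neuron points lie between -0.29 and 0.57, and *Htr4* in Control IP is the lowest point at -1.95.

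Neuron IP against input gave a different picture, in which the receptor genes stayed close to the level of the tissue. None of the 10 genes was called, where 0.432% of all genes tested were called higher and 15.8% lower. The median log2 fold change was 0.14 for the receptor genes, 0.00 for all genes and 0.81 for the 9 neuron markers that could be tested. By adjusted p alone, 4 receptor genes were higher in Neuron IP and 1 was lower, where 35.9% of all genes were higher and 35.6% lower. An unadjusted p under 0.05 was seen for 6 of 10 receptor genes and 73.7% of all genes.

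*Htr6*, a receptor concentrated in striatal neurons, rose most. It was at 2.77, 3.58, 3.02 and 2.53 CPM in Neuron inputs and 3.68, 4.07, 3.82 and 3.74 CPM in Neuron IP, with no overlap (log2 fold change 0.57 ± 0.12, edgeR adjusted p = 0.0014). *Htr1b* was at 16.05, 19.9, 18.8 and 19.5 CPM in inputs and 18.8, 25.7, 21.6 and 24.2 CPM in IP, higher in the IP of each number (log2 fold change 0.49 ± 0.10, edgeR adjusted p = 0.0015). With library totals, which lower the median of all genes in Neuron IP to -0.21, both remained higher, at 0.36 for *Htr6* (adjusted p = 0.018) and 0.28 for *Htr1b* (adjusted p = 0.032).

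*Htr2a* (log2 fold change 0.28 ± 0.07, edgeR adjusted p = 0.007) and *Htr5a* (0.21 ± 0.08, edgeR adjusted p = 0.032) had small rises that did not pass with library totals, where they were 0.07 and 0.00. *Htr1d* was 0.28 ± 0.12 (edgeR adjusted p = 0.053), and with the replicate number as a block its adjusted p was 0.00076. *Htr1f* was the 1 receptor gene that fell, from 9.51 to 10.8 CPM in inputs to 7.72, 7.01, 7.13 and 6.55 CPM in IP with no overlap (log2 fold change -0.29 ± 0.07, edgeR adjusted p = 0.0046). The other 4 genes, *Htr1a*, *Htr2c*, *Htr4* and *Htr7*, had log2 fold changes between -0.17 and 0.07 and adjusted p of 0.23 or more in edgeR. With library totals *Htr4* was -0.38 and passed the p limit (adjusted p = 0.021).

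The difference between Neuron and Control enrichment was tested directly, as an interaction of cohort and IP. Of the 10 genes, 4 were called, all with the higher enrichment in Neuron IP, where 8.27% of all genes tested were called in that direction and 19.1% in the other. They were *Htr1b* (difference of log2 fold changes 1.78 ± 0.15, edgeR adjusted p = 1.7e-08), *Htr4* (1.78 ± 0.18, adjusted p = 1.3e-07), *Htr1d* (1.65 ± 0.15, adjusted p = 3.2e-08) and *Htr2a* (1.21 ± 0.13, adjusted p = 1.6e-07). By the adjusted p alone, 35.8% of all genes differed in the first direction and 34.3% in the other. A further 4 receptor genes had a smaller difference in the first direction that passed the p limit, namely *Htr1f* (0.86), *Htr7* (0.67), *Htr2c* (0.63) and *Htr6* (0.60). *Htr1a* went the other way, with a difference of -0.61 ± 0.19 (edgeR adjusted p = 0.0092). *Htr5a*, at 0.21 ± 0.11, did not pass (edgeR adjusted p = 0.11), though it did with the replicate number as a block (adjusted p = 0.017). The 2 cohorts differed in the RiboTag and in their inputs, which held 126 to 159 and 809.9 to 1097 CPM of the cortical markers. The effects of tag, cohort and any difference in sex between the cohorts cannot be told apart.

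In the SAPAP3 cohort the IP was again lower in receptor mRNA than its input, in both genotypes. In SAPAP3 WT mice 3 of 10 receptor genes were called lower and 0 higher, where 12.1% of all genes tested were called lower and 10.9% higher. In SAPAP3 KO mice 4 of 10 were called lower and 0 higher, where 11.5% were called lower and 12.3% higher. With library totals the calls among all genes moved from 1701 higher and 1886 lower to 1395 and 2433 in WT, and from 1913 and 1797 to 1552 and 2450 in KO mice. The median log2 fold change of the receptor genes was -0.67 in WT and -0.78 in KO mice, and that of all genes was -0.03 and -0.0037. For the 9 neuron markers that could be tested it was -0.67 in WT and -0.63 in KO mice.

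*Htr2a* had the largest fall in both genotypes. It was at 32.7, 38.9, 37.8 and 38.5 CPM in SAPAP3 WT inputs and 12.8, 13.6, 10.6 and 10.6 CPM in the IP of the same mice (log2 fold change -1.47 ± 0.10, edgeR adjusted p = 2.2e-06). In SAPAP3 KO mice it went from 40.9, 38.9, 47.9 and 53.3 CPM to 14.7, 11.8, 13.5 and 17.6 CPM (log2 fold change -1.45 ± 0.13, edgeR adjusted p = 2.1e-06). Of the 7 cortical markers, 1 was called higher and 2 lower in SAPAP3 WT IP, with a median log2 fold change of -1.59. In SAPAP3 KO IP 1 was called higher and 5 lower, with a median of -1.27. The shares among all genes are given above. *Slc17a7*, the vesicular glutamate transporter of cortical neurons, averaged 384 CPM in SAPAP3 WT inputs and 95.8 CPM in IP. *Neurod6*, *Tbr1*, *Emx1*, *Fezf2* and *Cux2* were also lower on average in WT IP, and only *Rorb* was higher, at 102 and 207 CPM. The part of cortical RNA in the *Htr2a* values was not tested.

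*Htr1f* was lower in IP by a similar factor in both genotypes, at -1.30 ± 0.17 in WT (edgeR adjusted p = 0.00011) and -1.28 ± 0.14 in KO mice (adjusted p = 1.2e-05). *Htr4* was at 19.8, 8.25, 12.9 and 13.5 CPM in WT inputs and 7.90, 3.54, 4.29 and 4.11 CPM in WT IP, so that replicate 1 was the highest library on both sides (log2 fold change -1.28 ± 0.30, edgeR adjusted p = 0.0039). In KO mice *Htr4* was at 9.48 to 9.86 CPM in inputs and 2.54 to 4.58 CPM in IP (-1.11 ± 0.15, edgeR adjusted p = 7.4e-05), and without the KO IP library of replicate 2 it was -0.95, inside the fold limit. Without the WT input of replicate 1, *Htr4* in WT mice was -1.05, *Htr1f* -1.38 and *Htr2a* -1.52, all still called, as they were without both libraries of that mouse.

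*Htr1b* and *Htr1d* lay at the fold limit in the SAPAP3 cohort. *Htr1b* was -0.89 ± 0.23 in WT (edgeR adjusted p = 0.0065) and -0.96 ± 0.11 in KO mice (adjusted p = 1.3e-05). *Htr1d* was -0.999 ± 0.23 in WT (edgeR adjusted p = 0.0037), just short of the limit, and -1.12 ± 0.18 in KO mice (adjusted p = 0.0002), where it was called. Without the WT input of replicate 1, the library that stood apart, the values in WT mice were -0.65 ± 0.18 for *Htr1b* and -0.73 ± 0.16 for *Htr1d*. Without the WT IP library of replicate 1 both genes were called in WT mice, at -1.09 and -1.14, and *Htr1d* was called also without the WT input of replicate 2, 3 or 4, at -1.12, -1.06 and -1.02. In KO mice *Htr1b* was called without the IP library of replicate 1 (-1.04), and *Htr1d* was not called without the input of replicate 1, at -0.999. Without both libraries of that WT mouse the values were -0.82 for *Htr1b* and -0.84 for *Htr1d*.

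*Htr1a* was not raised in the SAPAP3 IP libraries as it was in Control IP. In WT mice it was at 3.88, 11.6, 10.8 and 13.3 CPM in inputs and 6.86, 7.03, 6.44 and 7.65 CPM in IP. Replicate 1 went up from input to IP and the other 3 mice went down, and the log2 fold change was -0.34 ± 0.30 (edgeR adjusted p = 0.33). Without the WT input of replicate 1 it was -0.59 ± 0.10 (adjusted p = 0.00091). In KO mice it was at 15.9, 11.8, 15.2 and 13.7 CPM in inputs and 9.09, 7.14, 8.23 and 8.01 CPM in IP, which did not overlap (-0.60 ± 0.11, edgeR adjusted p = 0.00051). The level of *Htr1a* in IP was 6.71 ± 1.31 CPM in Control, 7.00 ± 0.503 in SAPAP3 WT, 8.12 ± 0.801 in SAPAP3 KO and 13.1 ± 1.54 in Neuron libraries (SD, n = 4), and no Neuron IP library overlapped the others. Its level in the inputs was 5.03 ± 0.723 CPM in Control, 9.90 ± 4.14 in SAPAP3 WT and 14.2 ± 1.78 in SAPAP3 KO, and the cortical markers differed between these inputs in the same order.

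Of the remaining genes, *Htr2c* and *Htr5a* were lower in SAPAP3 IP in both genotypes by the adjusted p and not by the fold limit. *Htr2c* had log2 fold changes of -0.46 ± 0.14 in WT and -0.59 ± 0.11 in KO mice, with edgeR adjusted p of 0.016 and 0.00067, and -0.37 in WT mice without the input of replicate 1. Of 8 choroid plexus markers, 7 could be tested in SAPAP3 WT IP, and 4 were called higher and 0 lower. Their sum was 566 to 805 CPM in IP and 320 to 384 CPM in inputs, of which *Enpp2*, a gene of oligodendrocytes too, made up most, at 663 and 341 CPM on average. *Clic6* averaged 12.1 CPM in these inputs and 7.12 CPM in IP, *Kl* 3.64 and 2.28 CPM, and *Ttr* 1.40 and 0.727 CPM. Going the other way, *Folr1* averaged 0.339 and 1.14 CPM, *Otx2* 0.522 and 1.04 CPM, and *Aqp1* 0.262 and 0.711 CPM. The part of choroid plexus RNA in the values of *Htr2c* was not tested. *Htr5a* had -0.42 ± 0.14 and -0.57 ± 0.08, with edgeR adjusted p of 0.021 and 8.1e-05. The inputs and IP libraries of *Htr5a* overlapped in WT mice through the input of replicate 1, without which the value was -0.55. *Htr6* and *Htr7* did not pass in either genotype, with edgeR adjusted p between 0.067 and 0.94. *Htr6* in KO mice, at -0.50 ± 0.23, passed with the replicate number as a block (-0.51, adjusted p = 0.014).

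The deletion was visible in the labelled groups. *Dlgap3* was at 376 to 514 CPM in SAPAP3 WT inputs and 166 to 200 CPM in KO inputs, and at 232 to 386 CPM in Bulk WT and 144 to 161 CPM in Bulk KO. It was called lower in KO inputs (log2 fold change -1.19, edgeR adjusted p = 0.007) and KO IP (-1.40, adjusted p = 0.028), and in bulk its fall of -1.14 had an adjusted p of 0.32.

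The genotype comparisons ask whether loss of SAPAP3 changes the receptor mRNAs. None of the 10 genes was called at an adjusted p under 0.05 in edgeR, in inputs, where 0.00642% of all genes tested were called, in IP, where 0.0263% were, or in bulk striatum, where 0% were. At an unadjusted p under 0.05 there was 1 receptor gene in inputs, 2 in IP and 1 in bulk, where 5.59%, 2.63% and 4.95% of all genes passed. No receptor gene was called by limma-voom or DESeq2 either, and among all genes in bulk DESeq2 called 17. The difference in enrichment between KO and WT mice, tested as an interaction, was called for 0% of all genes and for none of the receptor genes, with 0 at an unadjusted p under 0.05, where 1.26% of all genes passed, and log2 differences from -0.39 to 0.13.

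*Htr2a* had an unadjusted p under 0.05 in both kinds of RiboTag library, and neither passed adjustment. In inputs it was at 32.7 to 38.9 CPM in WT and 38.9 to 53.3 CPM in KO mice (log2 fold change 0.32 ± 0.11, unadjusted p = 0.014, edgeR adjusted p = 0.73), and the value was 0.25 ± 0.10 without the WT input of replicate 1. In IP it was at 10.6 to 13.6 and 11.8 to 17.6 CPM (0.29 ± 0.13, unadjusted p = 0.045, edgeR adjusted p = 1). In bulk striatum, from other mice, it was 0.03 ± 0.21 (edgeR adjusted p = 1). The bulk groups covered nearly the same range, at 33.2 to 55.1 CPM in WT and 34.0 to 52.1 CPM in KO mice.

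*Htr1a* had a log2 fold change of 0.53 ± 0.30 in KO against WT inputs (edgeR adjusted p = 0.73), and of 0.27 ± 0.11 without the WT input of replicate 1. With the cortical marker sum as a covariate it was 0.12 ± 0.11. In IP *Htr1a* differed by 0.23 ± 0.10 (unadjusted p = 0.043, edgeR adjusted p = 1). *Htr4* had -0.45 ± 0.20 in inputs (unadjusted p = 0.051, edgeR adjusted p = 0.73), and -0.24 ± 0.15 without the WT input of replicate 1. *Htr6* was at 2.03, 1.96, 2.23 and 2.45 CPM in Bulk KO and at 3.05, 2.82, 3.35 and 2.13 CPM in Bulk WT, where replicate 4 lay among the KO libraries (log2 fold change -0.41 ± 0.16, unadjusted p = 0.028, edgeR adjusted p = 0.98). In inputs the value for *Htr6* was 0.02 ± 0.23. The other receptor genes differed by at most 0.40 on the log2 scale in any of the 3 comparisons, with SE from 0.08 to 0.23.

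**Figure D4:**
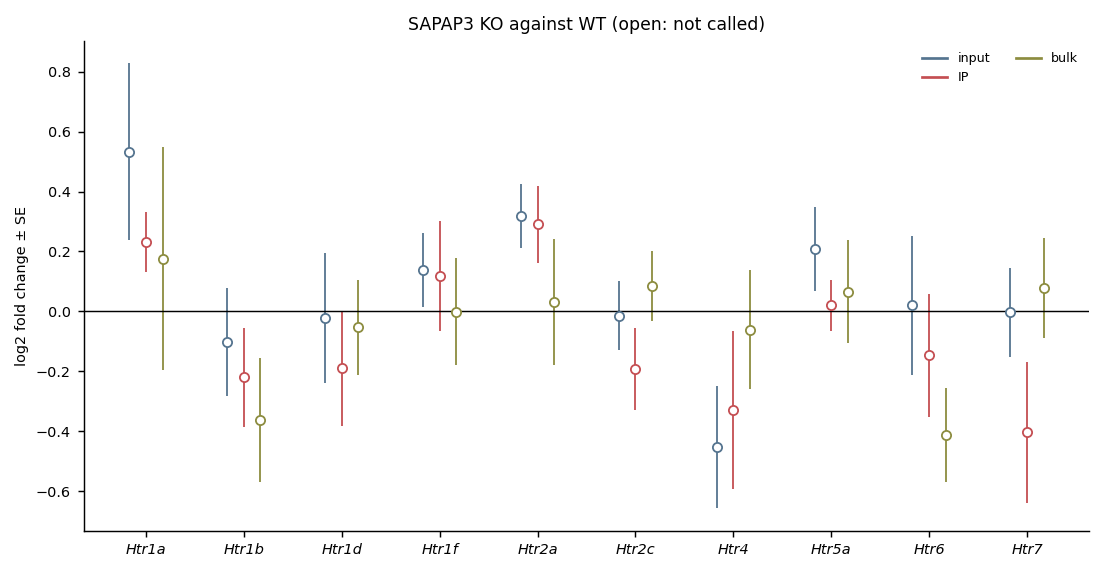
Log2 fold change of SAPAP3 KO against WT (± SE, edgeR, 4 against 4 libraries) for each receptor gene in inputs, IP and bulk striatum, with open points since no gene was called. The values lie between -0.45 (*Htr4*, inputs) and 0.53 (*Htr1a*, inputs), and the bars of *Htr1a* in inputs and bulk are the longest.

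Across the 8 bulk libraries the levels of several receptor genes moved with the cortical markers. *Htr1a* was at 20.6, 9.93, 5.16 and 12.4 CPM in Bulk WT and 16.8, 13.2, 16.5 and 9.01 CPM in Bulk KO. *Htr1b* ran the other way, at 23.2, 32.6, 46.2 and 27.8 CPM in Bulk WT and 23.3, 25.4, 20.9 and 33.0 CPM in Bulk KO. The library with the least *Htr1a* had the most *Htr1b*, and it had the lowest sum of the 7 cortical markers, 271 CPM.

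The relation of each receptor gene to the cortical marker sum was computed over the 8 bulk libraries on log2 values, after the pattern had been seen, with two-sided exact permutation tests and adjustment over the 10 genes. *Htr5a* (Pearson's r = 0.97, permutation adjusted p = 0.0032; Spearman's rho = 0.93, adjusted p = 0.011), *Htr2a* (r = 0.92, adjusted p = 0.0047; rho = 0.90, adjusted p = 0.011), *Htr1a* (r = 0.90, adjusted p = 0.0047; rho = 0.81, adjusted p = 0.036) and *Htr1f* (r = 0.88, adjusted p = 0.0047; rho = 0.90, adjusted p = 0.011) rose with it. *Htr1b* (r = -0.89, permutation adjusted p = 0.0047; rho = -0.79, adjusted p = 0.040) and *Htr1d* (r = -0.82, adjusted p = 0.029; rho = -0.90, adjusted p = 0.011) fell with it. The unadjusted permutation p of these 6 genes ran from 0.00032 to 0.017 for r and from 0.0022 to 0.028 for rho. *Htr4* had r = -0.60 (permutation adjusted p = 0.15) and rho = -0.83 (adjusted p = 0.031). *Htr2c* (r = -0.36, rho = -0.43), *Htr6* (r = -0.57, rho = -0.29) and *Htr7* (r = 0.25, rho = 0.05) had permutation adjusted p from 0.18 to 0.56 for r and from 0.37 to 0.93 for rho.

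Without the 2 libraries farthest from the median, Bulk WT replicates 2 and 3, r was 0.88 for *Htr5a*, 0.95 for *Htr2a*, 0.87 for *Htr1a* and 0.90 for *Htr1f*. It was -0.76 for *Htr1b* and -0.57 for *Htr1d*, whose relation thus rested in part on these libraries, and -0.89 for *Htr4*. For *Htr6* r was 0.26 and for *Htr7* -0.55, each with the opposite sign to that over 8 libraries. The labels give 1 animal number to both a Bulk WT and a Bulk KO library, so that the 8 may not be independent. Without these 2 libraries the 6 that were left gave r between 0.86 and 0.98 for the 4 genes that rose, -0.87 for *Htr1b*, -0.76 for *Htr1d*, -0.91 for *Htr6* and 0.43 for *Htr7*. The correlation was not computed within a genotype, which has 4 libraries. All values of a library share its total. How many of all genes move with the cortical marker sum was not computed, so the relation cannot be called particular to the receptor genes. The part of cortical RNA in the receptor levels was not tested further.

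**Figure D5:**
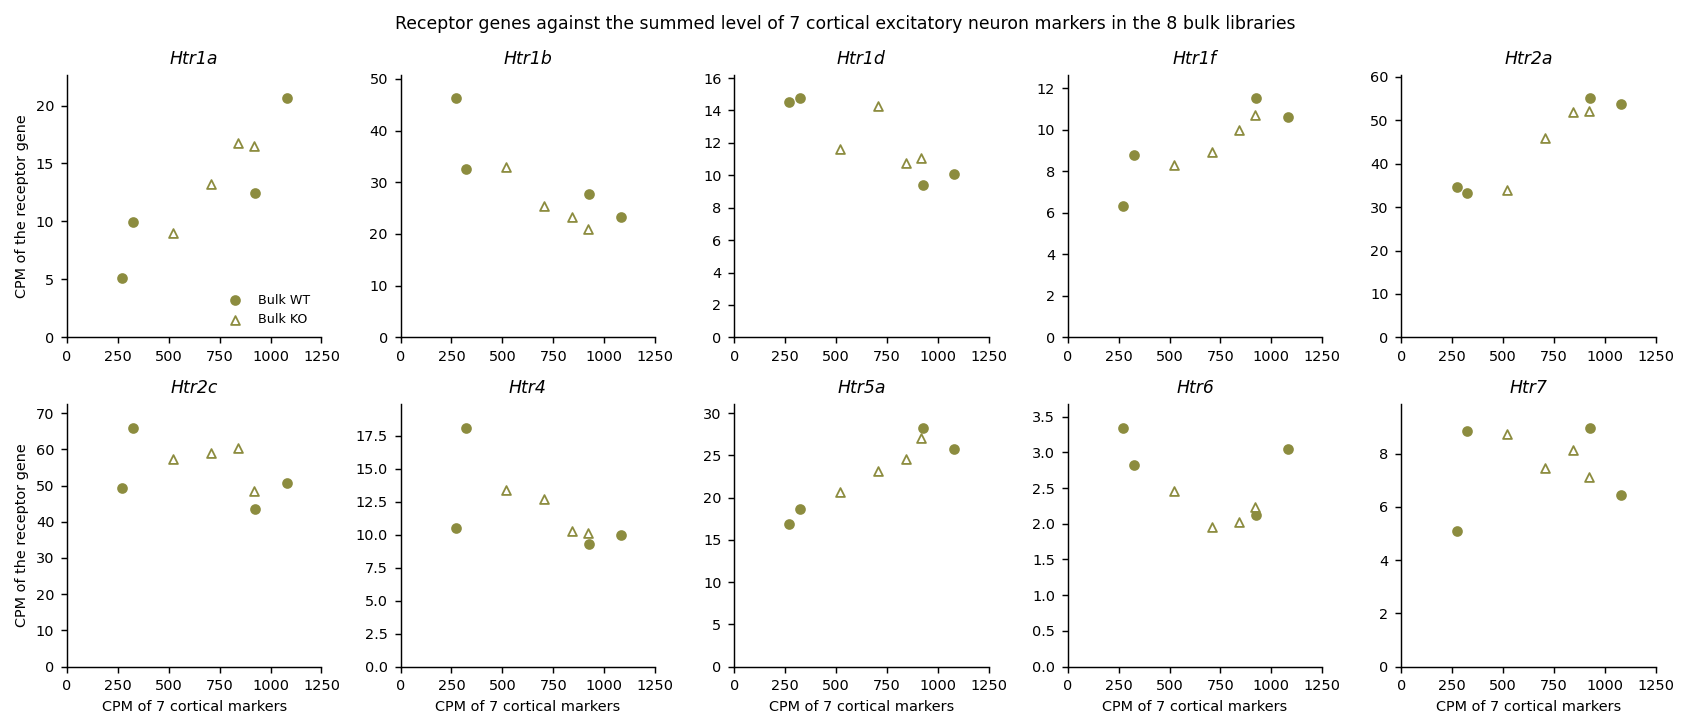
CPM of each receptor gene against the summed CPM of 7 cortical excitatory neuron markers in the 8 bulk libraries, with filled circles for WT and open triangles for KO. *Htr5a*, *Htr2a*, *Htr1a* and *Htr1f* rise along the axis from 271 to 1081 CPM, and *Htr1b* and *Htr1d* fall.

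The Control inputs and the SAPAP3 WT input of replicate 1, which had the lowest cortical sums of all inputs, showed a similar arrangement for several of these genes. *Htr1b* averaged 38.0 ± 1.44 CPM (SD, n = 4) in Control inputs and 18.6 ± 1.74 in Neuron inputs, and *Htr1d* 21.9 ± 1.89 and 10.5 ± 1.22. *Htr1a* averaged 5.03 ± 0.723 CPM in Control inputs and 14.7 ± 1.53 in Neuron inputs, and *Htr5a* 13.8 ± 0.552 and 24.0 ± 1.91. No library of one input group overlapped the other for these 4 genes. *Htr1f* did not overlap either, at 4.91 to 6.23 CPM in Control inputs and 9.51 to 10.8 CPM in Neuron inputs. *Htr2a* overlapped, at 27.9 to 35.8 and 35.4 to 42.3 CPM. The share of all genes without overlap was not computed. The 2 input groups were not tested against each other because the cohorts were prepared separately.

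The genes with the most similar profile over the 40 libraries were sought among the 14024 genes whose mean reached 1 CPM, by Pearson's r of log2 (TMM-scaled CPM + 0.5). These values share libraries, cohorts and the step from input to IP, and are given as a description. For *Htr1b* the closest was *Gpr52* (r = 0.96), which encodes a striatal G-protein-coupled receptor, and for *Htr1d* it was *Adra2c* (r = 0.96), an adrenergic receptor gene. *Htr2a* was closest to *Ociad2* (r = 0.97), *Htr5a* to *Hecw1* (r = 0.98), *Htr1f* to *Lin7a* (r = 0.96) and *Htr1a* to *Ube2ql1* (r = 0.95). *Arhgap6* was the closest gene to both *Htr4* (r = 0.95) and *Htr2c* (r = 0.88). *Htr6* was closest to *Nat14* (r = 0.86) and *Htr7* to *Cntnap5a* (r = 0.88). Among the receptor genes themselves, *Htr1f* and *Htr2a* (r = 0.92), *Htr1b* and *Htr1d* (r = 0.90), and *Htr1a* and *Htr5a* (r = 0.88) were the most alike, and *Htr1a* and *Htr1d* (r = -0.20) the least.

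The lists held 4 more serotonin receptor genes. *Htr2b* and *Htr3b* had at most 13 reads in any library and were not tested. *Htr3a*, the subunit of the serotonin-gated ion channel, rose in Control IP from 1.87 ± 0.256 to 4.22 ± 0.767 CPM (SD, n = 4; log2 fold change 1.39, edgeR adjusted p = 1e-05), and an exon of the predicted gene *Gm32335* overlaps it. *Htr5b* was at 0.376 to 0.568 CPM in SAPAP3 WT inputs and 1.38 to 2.05 CPM in IP (log2 fold change 2.00, edgeR adjusted p = 3.8e-05), on 10 to 98 reads a library, and was called higher also in KO mice (1.46, adjusted p = 0.0011). 

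Other genes of the serotonin system were enriched as well as depleted. Of 10 genes for serotonin synthesis, transport and breakdown, 7 could be tested in Control IP, where 3 were called higher and 2 lower. Of all genes tested there, 13.4% were called higher and 13.5% lower. *Maob*, a monoamine oxidase typical of astrocytes, rose from 19.8 to 109 CPM (log2 fold change 2.68, edgeR adjusted p = 2.7e-12) and *Maoa* from 33.1 to 78.5 CPM (1.46, adjusted p = 2.8e-11). *Tph2*, the enzyme of neuronal serotonin synthesis, rose from 1.01 to 4.17 CPM (log2 fold change 2.27, edgeR adjusted p = 1.9e-07). *Slc6a4*, the serotonin transporter, was too low to be tested in any comparison. In Neuron IP 1 gene of this list, *Ddc*, was called, and it was lower, where 0.432% of all genes were called higher and 15.8% lower.

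Of 14 genes for G proteins, effectors and a receptor partner, 5 were called higher and 1 lower in Control IP. The shares among all genes were 13.4% higher and 13.5% lower. *Plcb3*, a phospholipase C of the Gq pathway, rose from 22.1 to 95.5 CPM (log2 fold change 2.33, edgeR adjusted p = 2.7e-12) and *Gnao1*, the Go subunit, from 436 to 909 CPM (1.28, adjusted p = 5.1e-10). *Adcy5*, the main adenylyl cyclase of striatal projection neurons, fell from 2201 to 922 CPM (-1.03, edgeR adjusted p = 1e-08). In Neuron IP none of the 14 was called, where 0.432% of all genes were called higher and 15.8% lower. *Adcy5* had a log2 fold change of 0.61 there and *Gnal*, the olfactory-type Gs subunit of the striatum, 0.72, with edgeR adjusted p of 0.00042 and 6.6e-05. *S100a10*, which encodes a protein that binds some serotonin receptors, was called higher in SAPAP3 IP of both genotypes (1.13 and 1.05, edgeR adjusted p = 0.00023 and 5e-06). None of these genes was called between genotypes.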

How the data were processed

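RNA-seq was done on 40 libraries, and the table used here holds 1 column of counts for each. The authors deposited these counts per gene symbol as raw whole numbers, without normalization. Per the labels, reads were aligned to mm10 with STAR and counted with HTSeq. The annotation, strand setting and handling of multiply aligned reads are not given in the sources used here. The study's text and the labels name different library kits, of which the kit in the labels keeps strand. The reporting summary names ComBat, a batch correction, which whole-number counts do not show. The 2 symbols listed more than once were left out. *Drd1* is listed as *Drd1a*.

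CPM were computed with library totals, and FPKM with merged exon lengths of RefSeq GRCm38.p6. Tests used R 4.3.3 and edgeR 4.0.16 (filterByExpr, TMM, glmQLFit, glmQLFTest) on the compared groups only, with Benjamini-Hochberg adjustment over all genes tested. The limits were an adjusted p of 0.05 and, for IP against input and the Neuron and Control interaction, a log2 fold change of 1. Scripts were tested on simulated data. Alternatives were limma-voom (limma 3.58.1), DESeq2 1.42.0, library totals, no filter, a filter of 1 CPM in 4 libraries, *Xist* as a covariate in genotype comparisons, all groups of a cohort in the fit, the replicate block and leaving out each library. The cortical marker covariate and the fits without both libraries of 1 WT mouse were chosen after seeing the data. Python 3.11.15, numpy 2.4.6, pandas 2.3.3, scipy 1.17.1, matplotlib 3.10.9 and minimap2 2.31 were used, the last to seek transcripts of near-identical sequence.

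Groups follow the labels, and replicates are separate mice by their animal numbers, except that 1 number stands on both a Bulk WT and a Bulk KO library. IP and input were paired by animal, or in the Neuron cohort by the number in the title, since the animal numbers there differ. The pairing entered only the replicate block and the correlations that follow, and the main edgeR fits, with their SE and p, were unpaired. Deviations from the group means correlated at 0.257 to 0.585 within pairs in Control, 0.483 to 0.791 in Neuron, 0.516 to 0.696 in SAPAP3 WT and 0.438 to 0.621 in SAPAP3 KO, over genes whose mean reached 5 CPM. The genes named are the 10 receptor genes, fixed lists of other serotonin genes, G proteins, effectors and cell type markers, and the 3 genes most correlated with each receptor gene, of which the first is printed. A gene of the cortical marker list is not reported here and was left out of its sum. The members and lists were chosen with earlier results of these data known. Depth limits counts of rare genes. Sequences come from RefSeq, and no protein sequence was used here.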

Additional observations from a re-analysis of the deposited data

Results flagged for a closer look

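Dixon's test looks for a library that stands far from the other 3 of its group, and it marked 9 of 100 combinations of receptor gene and group, where chance marks about 1 in 20. The marked values were *Htr1a* in Control input replicate 4 (6.11 CPM), *Htr1b* in SAPAP3 KO IP replicate 1 (11.8 CPM), *Htr1d* in SAPAP3 WT IP replicate 1 (7.29 CPM) and in Neuron input replicate 2 (12.4 CPM), and *Htr1f* in Control IP replicate 1 (1.68 CPM). *Htr4* was marked in Control input replicate 2 (16.6 CPM) and in Bulk WT replicate 2 (18.1 CPM), *Htr6* in Control IP replicate 4 (2.34 CPM) and *Htr7* in SAPAP3 KO IP replicate 2 (3.58 CPM). The *Htr1a* and *Htr1b* values of the SAPAP3 WT input of replicate 1 were not among them.

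The enrichment in IP differed between the Neuron and Control cohorts, by the interaction term in edgeR, for 9 of the 10 receptor genes at an adjusted p under 0.05, which 35.8% of all genes passed with a higher and 34.3% with a lower enrichment in Neuron IP. With the fold limit 4 were called. The differences of log2 fold changes were 1.78 for *Htr1b*, 1.78 for *Htr4*, 1.65 for *Htr1d*, 1.21 for *Htr2a*, 0.86 for *Htr1f*, 0.67 for *Htr7*, 0.63 for *Htr2c*, 0.60 for *Htr6* and -0.61 for *Htr1a*.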

How the results depend on the processing

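The number of receptor genes called in each comparison stayed within 1.5 times its value in 226 repeats and moved further in 2. The exceptions were in SAPAP3 WT IP, where 3 genes were called lower, 5 with library totals in place of TMM, and 3 to 5 on leaving out single libraries, with 5 without the IP library of replicate 1. For single receptor genes, 605 values under other settings stayed on their side of the limits and 5 became called, and on leaving out a library 872 stayed, 6 became called and 2 were no longer called. No called gene changed direction. With the replicate block, 4 receptor genes were called lower in Control IP, 0 in Neuron IP, 3 in SAPAP3 WT IP and 4 in SAPAP3 KO IP, and 4 were called higher in the difference of Neuron and Control, so that it changed no call. Among all genes, DESeq2 called 8 in KO against WT inputs, 8 in IP, 17 in bulk striatum and 1 for the difference in enrichment, where edgeR called 1, 4, 0 and 0. Depth limits *Htr6*, with as few as 51 reads in a library, more than *Htr2c*. The causes of these differences were not tested.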
